A study of Mus musculus with 24 samples.

Results

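NFATc1-deficient splenic B cells were compared with control B cells after 16 h in culture with anti-IgM, which binds the B cell receptor and sets off its signals. The comparison rests on 6 of the 24 arrays of the series, 3 labelled KO and 3 labelled WT, and was chosen by these labels and not by any measured value. RNA was hybridised to Affymetrix expression arrays, 1 array per sample, and the question the comparison answers is which genes differ between the genotypes late in the response to the receptor. The other 18 arrays hold the same genotypes at 0, 3 and 8 h and also enter the estimate of spread behind the comparison.

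All mice are labelled C57BL/6 and 6-8 weeks old, and the cells were enriched from spleen with beads. In the KO mice exon 3 of Nfatc1, which encodes the region bound by calcineurin, lay between loxP sites and was removed by a Cre recombinase driven from Cd79a (mb1-cre), a gene of the B cell receptor that is active from early B cell development onward. The loss therefore preceded maturation of the cells in the spleen, and a difference at 16 h can also carry what the cells were before stimulation. The control mice are labelled WT, and whether they carried the Cre or the flanked allele is not given in the sources used here. The replicates are called biological, but the labels do not say whether arrays with the same number came from 1 animal.

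NFATc1 is a transcription factor held in the cytoplasm by phosphorylation. Receptor engagement raises calcium, which activates the phosphatase calcineurin, and dephosphorylated NFAT proteins enter the nucleus and bind DNA at sites with the core GGAAAA. Rcan1 encodes a calcineurin inhibitor whose inner start site is a known target of this pathway, so it acts as a feedback. In mature B cells, MHC class II molecules present peptides taken up through the receptor, and their genes share a promoter module that includes the Y box, bound by NF-Y, and depend on the coactivator CIITA.

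Promoters are shown for Rcan1, the gene with the smallest p in the comparison among those lower in KO cells, and for 4 of the called class II genes, 3 of them with a match to a motif and H2-DMb2, the most stable call of the group, without one. Each is 300 bases around a RefSeq start (build GRCm38.p6), most of them before the start and the last 50 after it, 5′ to 3′ on the strand of the gene, with matches to GGAAAA or TTTTCC (the NFAT core on either strand) and to CTGATTGG or CCAATCAG (the Y box on either strand) in capitals.
Rcan1, inner start, chr16:92400029-92400328, minus strand: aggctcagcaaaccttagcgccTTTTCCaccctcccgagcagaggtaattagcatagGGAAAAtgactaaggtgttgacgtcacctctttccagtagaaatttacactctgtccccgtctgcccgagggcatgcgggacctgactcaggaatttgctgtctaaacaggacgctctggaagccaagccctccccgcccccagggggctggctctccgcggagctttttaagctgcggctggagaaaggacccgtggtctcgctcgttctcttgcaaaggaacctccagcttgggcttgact
H2-Eb1, chr17:34305617-34305916, plus strand: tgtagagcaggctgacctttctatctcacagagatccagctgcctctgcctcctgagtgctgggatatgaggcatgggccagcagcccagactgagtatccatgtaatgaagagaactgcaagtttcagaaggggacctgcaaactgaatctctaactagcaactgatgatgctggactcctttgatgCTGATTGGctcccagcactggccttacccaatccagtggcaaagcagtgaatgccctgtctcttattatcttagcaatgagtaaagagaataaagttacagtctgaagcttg
H2-Oa, chr17:34092129-34092428, plus strand: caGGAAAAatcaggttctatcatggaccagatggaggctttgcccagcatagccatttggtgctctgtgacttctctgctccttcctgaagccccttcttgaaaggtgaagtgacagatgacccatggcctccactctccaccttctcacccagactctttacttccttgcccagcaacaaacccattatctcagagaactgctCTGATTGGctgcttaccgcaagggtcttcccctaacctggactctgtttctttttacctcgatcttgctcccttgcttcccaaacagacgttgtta
H2-Ob, chr17:34238655-34238954, plus strand: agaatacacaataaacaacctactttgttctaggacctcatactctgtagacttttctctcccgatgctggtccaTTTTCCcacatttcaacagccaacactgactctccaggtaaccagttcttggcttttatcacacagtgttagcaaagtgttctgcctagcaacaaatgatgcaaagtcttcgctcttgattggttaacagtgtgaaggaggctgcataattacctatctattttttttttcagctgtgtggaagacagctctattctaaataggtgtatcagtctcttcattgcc
H2-DMb2, chr17:34144999-34145298, plus strand: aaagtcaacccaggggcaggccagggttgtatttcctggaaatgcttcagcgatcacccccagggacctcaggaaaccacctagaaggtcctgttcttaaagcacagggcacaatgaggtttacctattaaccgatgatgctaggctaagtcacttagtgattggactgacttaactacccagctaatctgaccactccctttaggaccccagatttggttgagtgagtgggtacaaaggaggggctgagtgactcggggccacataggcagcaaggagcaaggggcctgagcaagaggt

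The Rcan1 sequence shown holds 2 NFAT cores, whose leftmost bases lie 193 and 228 bases before the start. A second listed start of Rcan1, at chr16:92466120-92466419, has neither motif. Which start the Rcan1 probe sets measure was not examined. H2-Eb1 holds a Y box 62 bases before its start, H2-Oa a Y box 46 bases and an NFAT core 248 bases before it, and H2-Ob an NFAT core 175 bases before it. H2-DMb2 holds neither word exactly. Only these exact words were searched, so near matches to the Y box, such as gtgattgg in H2-DMb2 and ttgattgg in H2-Ob, were not counted. Of the called class II genes not shown, H2-DMa has 2 listed starts, one with an NFAT core 106 bases before it and one with neither motif, and Marchf1 has an NFAT core 152 bases before one of its listed starts and no match at the others. The NFAT core is a short word: it occurs in 23.3% of all 32544 promoters of this length, in 14 of the 62 promoters of genes higher in KO cells (22.6%; 44 of 61 genes had a promoter entry) and in 6 of the 33 of genes lower in KO cells (18.2%; 23 of 27 genes). The Y box occurs in 4.07% of all promoters, in 6 of those 62 (9.68%) and in 1 of those 33 (3.03%). The 2 motifs share no overlapping site in the sequences shown, and a match describes the sequence only.

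Of 14318 genes tested, 88 (0.615%) differed between KO and WT cells at 16 h by limma's moderated test with Benjamini-Hochberg adjustment over all genes, called here at an adjusted p under 0.05. KO cells had higher signals of 61 genes (0.426% of those tested) and lower signals of 27 (0.189%). Among the higher genes were 6 of 17 tested members of a list on MHC class II presentation, the B cell coreceptors Cr2, Cd22 and Fcer2a, the G protein regulators Rgs2 and Rgs13 and the lipid receptors P2ry10 and Cnr2. Those lower included the actin crosslinker Actn1, the checkpoint receptors Pdcd1 (PD-1) and Vsir (VISTA), the cytokine gene Ifng, the kinase gene Sgk1 and Rcan1. The median difference over all genes was 0.01 log2 units, and 1013 genes (7.08%) had an unadjusted p under 0.05.

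The 3 arrays of one genotype lay wholly above the 3 of the other in each of the 88 called genes. This was also so for 1455 of all 14318 genes (10.2%), so separation alone does not mark a call. Signals are given as log2 units, and differences as KO minus WT on that scale with limma's standard error (SE). As the animals are not named, the p-values measure the spread between these arrays. An array's 40th percentile, used to filter dim probe sets, lay between 5.38 and 6.42 log2 units at 16 h, and values under it have no firm order.

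**Figure D1:**
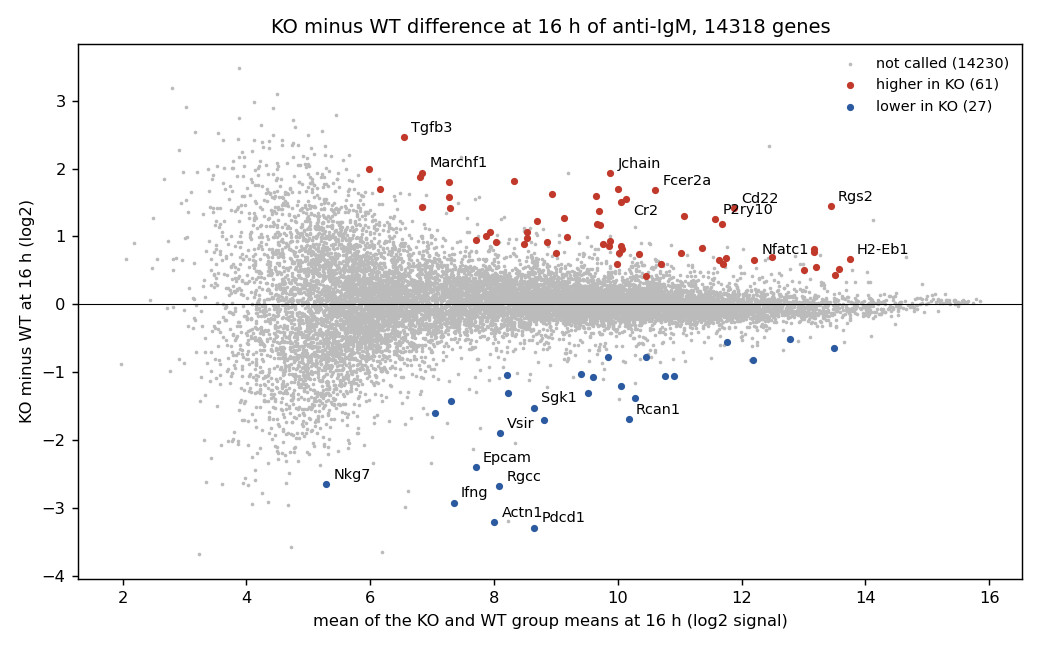
Difference KO minus WT at 16 h (log2, vertical axis) against the mean of the 2 group means (log2 signal, horizontal axis) for 14318 genes; each point is 1 gene. The 61 called higher and 27 called lower genes stand out from the grey cloud, which widens at low signal; Pdcd1 and Actn1 are the lowest points called.

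KO replicate 2 had the highest background: its filter level was 6.42 against 5.38 to 6.01 on the other 5 arrays, and 0.0843% of its probe sets held the lowest signal against 0.248% to 1.035% on the others. Its estimated array weight was the lowest of the 6, 0.531, with 0.578 for KO replicate 3. WT replicate 2 had male-type expression, with Xist at 6.58 against 13.27 to 13.99 log2 units on the other 5 arrays, so 1 control array differed from the rest in sex. The WT replicate 2 arrays of 0, 3 and 8 h were of male type too (Xist 6.17, 6.62 and 6.26), and no other array of the series was. The pairwise correlations of the 6 arrays ran from 0.918 to 0.948. Without KO replicate 2, 42 genes were called, 37 of them among the 88, and without WT replicate 2, 43 genes, again 37 among the 88. Leaving out any other array of 16 h gave 68 to 75 calls.

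A core of 28 genes, 20 higher and 8 lower, passed whichever of the 6 arrays was left out. The higher ones among them described below are Cr2, P2ry10, Rgs2, Rgs13, Cd22, Fcer2a, Cd36, Gsn, H2-DMa, H2-DMb2, Marchf1, Lrrk2, Plpp1, Endou, Bspry, Sorl1, Cytip, Ctsh, Tec and Fndc10, and the lower ones are Actn1, Rcan1, Vsir, Sgk1, Mcoln2, Tmtc4, Adam10 and Dpysl2. The remaining 60 lost their call without at least 1 array, and for those given with signals per array below, an adjusted p from such an omission stands beside them.

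By their pan-B markers the cells matched their label. Ms4a1 (CD20), at 13.91 to 14.31 log2 units, and Cd79b, at 12.77 to 13.30, were bright on all 6 arrays. Of 10 T cell markers on the array, 4 (Cd3d, Cd3e, Cd4 and Cd8b1) were under the filter level of every array. So were 4 of 9 NK cell markers (Gzma, Gzmb, Klra8 and Ncr1). The other markers of both lists reached it on at least 1 array. NK cell markers summed to 303 to 667 in KO and 338 to 506 in WT. Summed signals of 10 T cell markers on the array were 656 to 875 in KO and 593 to 660 in WT, against 49480 to 62430 and 44520 to 53670 for 9 pan-B markers. Macrophage markers summed to 9952 and neutrophil markers to 4380 in KO replicate 3, against 2937 to 5016 and 737 to 1327 on the other arrays. In such bulk samples, fewer cells of a type and less RNA per cell cannot be told apart.

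The Nfatc1 signals do not check the deletion, because the position of the probe sets relative to exon 3 is not given in the sources used here. Of 5 probe sets, the brightest gave 12.40, 12.48 and 12.70 log2 units in KO and 11.88, 11.65 and 12.08 in WT. It was 1.58-fold higher in KO cells (difference 0.66, SE 0.13, adjusted p = 0.0107; up to 0.1075 with 1 array left out, WT replicate 2). The other 4 probe sets had differences of 0.13, 0.17, 0.20 and -0.45, each with an adjusted p of 0.9996 when every probe set is tested. Signal from the locus thus remained in the cells labelled KO, and the 5 probe sets did not move together.

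Rcan1 was the member of the NFAT and calcineurin list that was lower. Its signals were 9.10, 9.57 and 9.32 log2 units in the KO arrays and 10.98, 11.37 and 10.74 in the WT arrays, a 3.25-fold lower level (difference -1.70, SE 0.18, adjusted p = 3.03e-05). A second Rcan1 probe set gave -1.69 (adjusted p = 5.3e-04 over probe sets). Both groups lay above their unstimulated means of 8.41 in KO and 8.31 in WT. Nfatc1 was the only member called higher. The other 15 of the 17 tested members were not called, among them the catalytic calcineurin subunit genes Ppp3ca (0.57) and Ppp3cc (0.62) and the paralogs Nfatc2 (0.14) and Nfatc3 (0.21). In 14 of the 17 the difference was positive, with a median of 0.18; under the array-median scaling this was 11 of 17 and 0.15.

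Of 17 tested members of the MHC class II presentation list, 6 were called higher in KO cells, none lower, and 11 did not pass. The peptide exchange factor DM had both tested chains called. H2-DMb2 gave 11.72, 11.88 and 11.55 log2 units in KO against 10.46, 10.40 and 10.41 in WT, 2.45-fold higher (difference 1.29, SE 0.17, adjusted p = 2.55e-04), and H2-DMa gave 10.26, 10.58 and 10.04 against 9.26, 9.07 and 9.04, 2.25-fold higher (1.17, SE 0.16, adjusted p = 5.44e-04). In both genes every KO array lay above every WT array, for H2-DMb2 by more than a full unit, and the 3 WT arrays were close together. The 2 other H2-DMb2 probe sets were also called, at 1.02 and 1.43.

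DO, which restrains DM in B cells, followed with smaller differences. H2-Oa read 10.32, 10.56 and 10.12 in KO and 9.54, 9.25 and 9.44 log2 units in WT (0.93, SE 0.17, adjusted p = 0.00894), and H2-Ob read 11.12, 11.70 and 11.39 against 10.81, 10.45 and 10.69 (0.75, SE 0.15, adjusted p = 0.0142). Neither call held without KO replicate 2 (adjusted p = 0.0779 and 0.126) or without WT replicate 2 (0.0714 and 0.12). Their gap to the control arrays was narrower, most of all for H2-Ob, where KO replicate 1 came close to WT replicate 1.

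Of the classical chains that present peptide, H2-Eb1 was called, at 14.05, 14.34 and 13.85 log2 units in KO and 13.42, 13.41 and 13.41 in WT (0.67, SE 0.15, adjusted p = 0.0298; up to 0.227, without KO replicate 2). H2-Ab1 and H2-Aa had differences of the same size, 0.73 (SE 0.19) and 0.69 (SE 0.21), with adjusted p of 0.0947 and 0.218. Their brightness differs by probe set and is not compared between genes. The invariant chain Cd74 differed by 0.30 (adjusted p = 0.688) and the protease Ctss, which trims it, by -0.00.

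Marchf1, a ubiquitin ligase that removes class II molecules and CD86 from the surface, had the largest difference of the list. It read 7.46, 8.01 and 7.97 log2 units in KO and 5.78, 5.99 and 5.84 in WT, so that the control arrays were at or near the filter level (difference 1.94, SE 0.30, adjusted p = 0.00115; 1.87 with dim signals raised to the filter level). Unstimulated cells of both genotypes were far above both, at means of 12.30 in KO and 12.21 in WT. The level at 16 h was thus low in both genotypes, and lower in the controls.

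The coactivator Ciita gave 8.75, 9.10 and 8.31 log2 units in KO and 8.40, 7.12 and 7.77 in WT (0.96, SE 0.25, adjusted p = 0.0999), and the genotypes overlapped. Its DNA-bound partners Rfx5, Rfxap and Rfxank differed by 0.32, 0.11 and 0.01. In all, 15 of the 17 tested members had a positive difference, with a median of 0.67 against 0.01 over all genes, and this median stayed between 0.54 and 0.76 under both scalings and without KO replicate 2, KO replicate 3 or WT replicate 2. The number called fell to 3 without KO replicate 2 and to 3 without WT replicate 2. The list was chosen with earlier results of these data known, so its count and median describe its members and are no independent test.

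The class II genes lie in one stretch of chromosome 17 together with genes of other pathways, a set looked at after the values were seen. Brd2, between H2-Oa and H2-DMa, differed by -0.09 (adjusted p = 0.997). The 4 genes between H2-DMb1 and H2-Ob that serve class I presentation, Psmb9, Tap1, Psmb8 and Tap2, differed by 0.20, 0.10, 0.22 and 0.05, each with an adjusted p of at least 0.98. All 7 tested class II genes in the stretch had differences of 0.67 or more. H2-DMb1 was not tested.

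**Figure D2:**
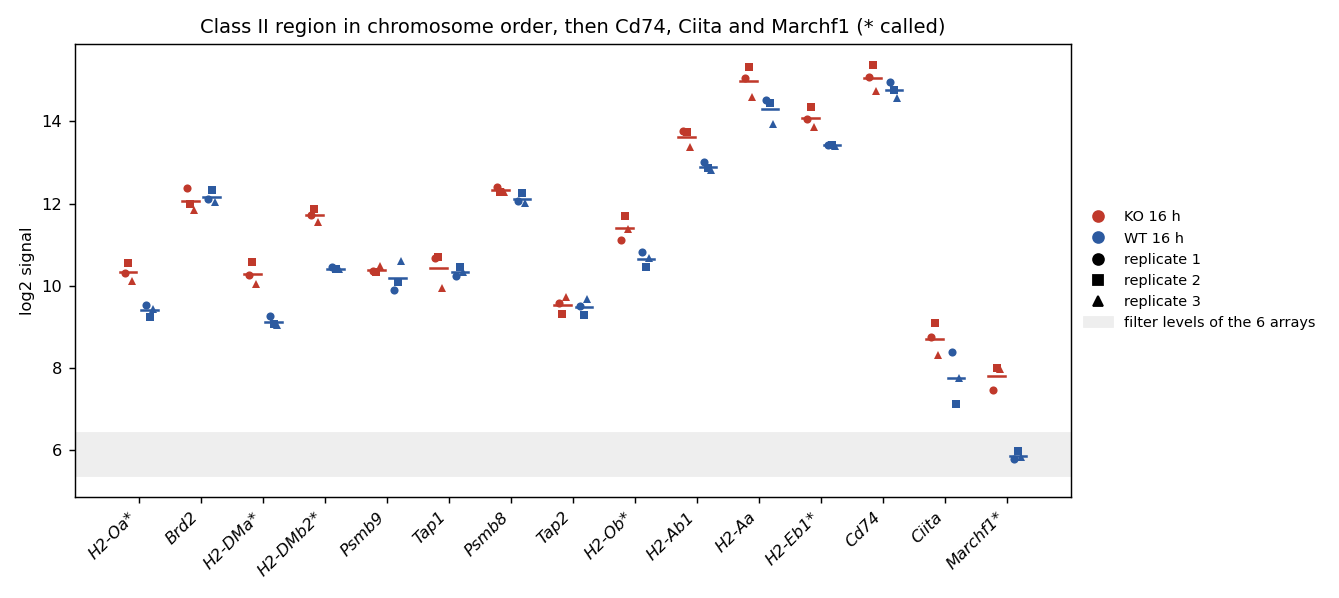
Log2 signal on the 3 KO and 3 WT arrays of 16 h for genes of the class II region in chromosome order, followed by Cd74, Ciita and Marchf1; the bar is the group mean, the marker shape the replicate number and the grey band the range of the 6 filter levels. The called genes, marked with an asterisk, have all KO points above all WT points, while Brd2, Psmb9, Tap1 and Tap2 overlap between genotypes and Psmb8 is separated by a small gap without passing the test.

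Of 19 tested coreceptors and inhibitory receptors, which tune the B cell receptor, 4 were called higher in KO cells and 15 did not pass. Cr2 (CD21), the complement receptor that lowers the threshold for activation, read 11.08, 11.20 and 10.47 log2 units in KO and 9.46, 9.17 and 9.46 in WT, 2.94-fold higher (1.56, SE 0.17, adjusted p = 3.03e-05). Fcer2a (CD23), the low-affinity IgE receptor, read 11.70, 11.38 and 11.27 against 10.20, 9.56 and 9.54 (1.68, SE 0.24, adjusted p = 6.12e-04). Cd22, a sialic acid-binding inhibitory receptor, read 12.58, 12.79 and 12.39 against 11.36, 10.90 and 11.26 (1.41, SE 0.20, adjusted p = 5.44e-04). In each gene the lowest KO array was more than a full unit above the highest WT array.

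Ptpn6 (SHP-1), the phosphatase that CD22 recruits, was higher by 0.52 (SE 0.11, adjusted p = 0.0241), at 13.77, 13.90 and 13.81 log2 units in KO and 13.26, 13.34 and 13.33 in WT. It lost the call with each of the 6 arrays left out in turn (adjusted p up to 0.13). Other members were not called, such as Fcgr2b (0.19), Cd72 (0.03) and Cd5 (0.00). A positive difference was seen in 18 of the 19 members with a median of 0.19, and in 15 of 19 under the array-median scaling.

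Adam10, the protease that sheds CD23 from the surface, was lower in KO cells, at 11.69, 11.63 and 11.98 log2 units against 12.43, 12.56 and 12.78 (-0.82, SE 0.14, adjusted p = 0.00341). Its substrate's gene Fcer2a was higher in the same arrays, as given above. Both calls held with any 1 array left out. The data are RNA levels, and shedding was not measured.

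2 of 16 tested regulators of G protein signalling were called, both higher. Rgs2 was bright and read 14.06, 14.31 and 14.10 log2 units in KO and 12.48, 12.43 and 13.24 in WT, 2.72-fold higher (1.44, SE 0.20, adjusted p = 3.81e-04). Rgs13, known from germinal centre B cells, where it dampens chemokine signals, read 10.56, 10.36 and 10.42 against 8.60, 8.54 and 9.41, 3.02-fold higher (1.59, SE 0.23, adjusted p = 6.12e-04). In both genes WT replicate 3 was the highest control and still under every KO array. Rgs18 (1.34, adjusted p = 0.26), Rgs1 (0.62) and Rgs16 (-0.38) were not called.

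Among 16 tested migration and lipid receptors, 2 were higher. P2ry10, a receptor for lysophosphatidylserine, read 12.08, 12.31 and 12.21 log2 units in KO and 11.03, 10.84 and 10.96 in WT, 2.39-fold higher (1.25, SE 0.14, adjusted p = 3.03e-05). The arrays of each genotype lay close together, with a gap of more than a full unit between genotypes. Cnr2, the cannabinoid receptor of lymphocytes, read 9.12, 9.25 and 8.81 against 8.33, 7.75 and 7.92 (1.06, SE 0.24, adjusted p = 0.0378; up to 0.239, without WT replicate 2). Homing receptors such as Cxcr5 (0.31), Ccr7 (-0.15), S1pr1 (0.31) and Gpr183 (-0.13) were not called.

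Actin regulators split. Actn1, an actin crosslinker at adhesion sites, was 9.27-fold lower: it read 6.36, 6.89 and 5.95 log2 units in KO and 9.62, 10.28 and 8.94 in WT (-3.21, SE 0.40, adjusted p = 1.69e-04). The KO values were close to their unstimulated mean of 6.39, whereas the controls had an unstimulated mean of 6.71. Gsn (gelsolin), which severs and caps filaments, was 2.58-fold higher, at 10.06, 10.36 and 10.71 against 9.06, 8.77 and 9.19 (1.37, SE 0.18, adjusted p = 1.98e-04), and 4 of its 5 probe sets were called. These 2 were the called members among 27 tested.

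Outside that list Dstn (destrin), which also disassembles filaments, was lower (-0.79, SE 0.16, adjusted p = 0.016; up to 0.124, without WT replicate 2), at 9.71, 10.08 and 10.41 log2 units in KO and 11.05, 11.03 and 10.48 in WT. Ablim1, an actin-binding LIM protein gene, was higher by 0.74 (adjusted p = 0.0108; up to 0.102, without KO replicate 2), although another of its probe sets pointed the other way at -0.50. The remaining core genes of the cytoskeleton, such as Cfl1 (0.08), Pfn1 (0.02), Flna (0.35) and Actn4 (0.09), were not called.

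Of 23 tested suppressive and checkpoint molecules, 3 were called lower and 1 higher. Pdcd1 read 6.81, 7.37 and 6.82 log2 units in KO and 9.96, 10.60 and 10.33 in WT, 9.8-fold lower (-3.29, SE 0.70, adjusted p = 0.0221). Its SE was the largest of the called genes. That SE is pooled over the arrays of all times, and on these 6 arrays the standard deviation was 0.32 log2 units in each genotype. Leaving out any of the 6 arrays ended the call, with limma's adjusted p between 0.057 and 0.135. The difference then stayed between -3.48 and -3.14, and the call held in a fit of these 6 arrays alone. The unstimulated means were 3.27 in KO and 5.02 in WT, under the filter level, so Pdcd1 rested near background before stimulation in both.

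Vsir read 6.65, 7.11 and 7.67 log2 units in KO and 8.82, 8.89 and 9.42 in WT, 3.73-fold lower (-1.90, SE 0.30, adjusted p = 0.0015), and its second probe set gave -2.69 (adjusted p = 9.61e-04 over probe sets). Every KO array lay more than 1 unit under every WT array. Ifng, the interferon gamma gene, read 4.71, 6.40 and 6.54 against 8.63, 8.98 and 8.83 (-2.93, SE 0.56, adjusted p = 0.0107; up to 0.0761, without KO replicate 1). As 2 of the KO values of Ifng fell under their arrays' filter levels, the difference with those raised was -2.57, at least 5.95-fold lower.

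Tgfb3, encoding a TGF-beta ligand, was the member of the same list called higher. It read 7.51, 7.80 and 7.99 log2 units in KO and 5.97, 3.88 and 6.08 in WT, where the group mean was under the filter level. The bound is therefore at least 3.43-fold higher (adjusted p = 0.00921; 0.0645 without WT replicate 2). Of the 23 tested members, the remaining 19 were not called, including Il10 (-0.70, adjusted p = 0.79), Cd274 (PD-L1, 0.31), Pdcd1lg2 (PD-L2, 0.01) and Havcr2 (-2.59, adjusted p = 0.23).

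Havcr2 shows why size alone is no call at this brightness. Its 6 signals ran from 2.77 to 5.62 log2 units, under the filter level of its array throughout. The list had 14 positive and 9 negative differences and a median of 0.10.

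Sgk1, a kinase downstream of PI3K that acts on ion channels and on FOXO factors, was 2.88-fold lower. It read 7.78, 7.54 and 8.31 log2 units in KO and 9.42, 9.30 and 9.48 in WT (-1.52, SE 0.25, adjusted p = 0.00184). Twsg1, a secreted BMP-binding protein gene, read 8.75, 8.55 and 9.36 against 9.80, 9.73 and 10.24 (-1.04, SE 0.19, adjusted p = 0.00556; 0.063 without KO replicate 2). The other 20 tested members of the PI3K and SGK list were not called, with Akt1 at 0.12, Pik3r1 at 0.16 and Pik3ip1 at 1.18 (adjusted p = 0.22).

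Mcoln2, an endolysosomal cation channel gene, read 9.70, 9.52 and 9.53 log2 units in KO and 10.85, 11.03 and 11.03 in WT (-1.39, SE 0.20, adjusted p = 5.73e-04). Tmtc4, an endoplasmic reticulum protein gene, read 9.16, 9.42 and 9.79 against 10.54, 10.40 and 11.04 (-1.20, SE 0.18, adjusted p = 7.29e-04). Dpysl2, a microtubule-binding protein gene, was lower too (-1.06, SE 0.18, adjusted p = 0.00248), with a second, uncalled probe set at 1.23. All 3 calls held with any 1 array left out.

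Rgcc, a cell cycle regulator induced by complement, read 6.05, 7.20 and 6.99 log2 units in KO and 8.69, 9.66 and 9.93 in WT (-2.68, SE 0.56, adjusted p = 0.0204; up to 0.126, without KO replicate 1). Epcam, an adhesion molecule gene, read 6.81, 4.95 and 7.73 against 8.13, 9.23 and 9.36 (-2.41, SE 0.55, adjusted p = 0.0394; 0.326 without KO replicate 2, whose value was under the filter level). KO replicate 3 of Epcam came close to WT replicate 1. With dim signals raised to the filter level, the Epcam difference was -1.92.

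Pard6g, a cell polarity gene, read 7.95, 8.22 and 7.67 log2 units in KO and 9.62, 10.24 and 9.11 in WT (-1.71, SE 0.35, adjusted p = 0.016; up to 0.141, without WT replicate 2). Serpinf1, encoding a secreted serpin, read 6.01, 6.43 and 6.31 against 7.38, 8.29 and 7.88 (-1.60, SE 0.34, adjusted p = 0.0214; up to 0.179, without WT replicate 2). In both, WT replicate 2 was the highest array. Tspan2, a tetraspanin gene, read 8.93, 8.62 and 9.05 against 10.02, 10.43 and 10.05 (-1.30, SE 0.27, adjusted p = 0.0191; up to 0.135, without WT replicate 2).

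Ipcef1, whose product binds a cytohesin, read 7.33, 8.08 and 7.30 log2 units in KO and 8.74, 8.78 and 9.11 in WT (-1.31, SE 0.25, adjusted p = 0.0107; up to 0.0614, without KO replicate 1). Chrnb1, a nicotinic receptor subunit gene, read 7.00, 5.66 and 7.12 against 7.98, 8.06 and 8.03 (-1.43, SE 0.32, adjusted p = 0.0345; 0.249 without KO replicate 2). KO replicate 2 was under its filter level for Chrnb1, and the difference with it raised was -1.17. The other lower genes included the transcription factor gene Myb (-1.07), the histone methyltransferase gene Ezh2 (-0.56), the protease gene Adamts6 (-1.07), the ubiquitin ligase adaptor gene Ndfip1 (-0.51), Hivep3 (-0.65), Chml (-0.78), Spn (-1.05) and Nkg7.

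Each of these 8 lost its call without at least 1 array, with the largest adjusted p at 0.1003 for Myb and 0.09949 for Ezh2 (both without KO replicate 2), 0.1423 for Adamts6 and 0.1689 for Hivep3 (both without KO replicate 3), 0.1199 for Chml (without WT replicate 2) and 0.2109 for Ndfip1 (without KO replicate 1). Ndfip1 lost it with each of the 6 arrays left out in turn. Nkg7, an NK cell and cytotoxic granule gene, read 3.10, 4.05 and 4.73 log2 units in KO and 6.73, 6.82 and 6.29 in WT. Its KO values were under the filter level, and the call rests on them (adjusted p = 0.0255; up to 0.1615, without KO replicate 1). With the dim signals raised to the filter level, the difference in Nkg7 of at least 1.7-fold was not called (adjusted p = 0.867). Of 9 NK cell markers on the array, the 4 named above were under the filter level on all 6 arrays, and the others were not.

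**Figure D3:**
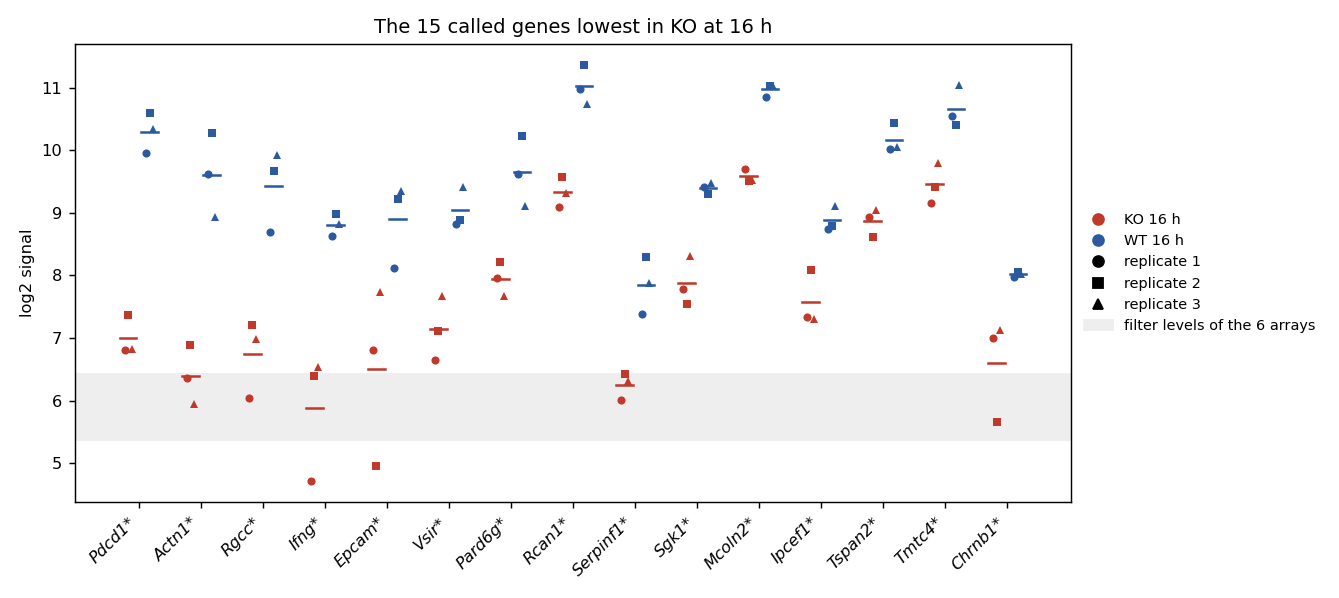
Log2 signal on the 6 arrays of 16 h for the 15 called genes lowest in KO, ranked after signals under an array's filter level were raised to it; bars are group means, marker shapes the replicate numbers and the grey band the range of the filter levels. All KO points lie under all WT points in every gene, and Ifng, Epcam and Chrnb1 have a KO point under the filter level of its array.

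The remaining genes with the largest positive differences belong to several functions. Jchain, which joins IgM and IgA multimers, read 10.99, 11.39 and 10.15 log2 units in KO and 8.48, 8.56 and 9.70 in WT (1.93, SE 0.39, adjusted p = 0.0147; up to 0.126, without KO replicate 2). KO replicate 3, the lowest of its group, came close to WT replicate 3, the highest of the controls. Other plasma cell genes were not called, with Mzb1 at -0.61 (adjusted p = 0.071), Prdm1 at -0.39, Irf4 at -0.10 and Xbp1 at 0.03.

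Plpp1, a lipid phosphate phosphatase gene, read 8.99, 9.32 and 9.38 log2 units in KO and 7.33, 7.42 and 7.49 in WT, 3.52-fold higher (1.81, SE 0.30, adjusted p = 0.00262). Cd36, a fatty acid and lipoprotein receptor gene enriched in marginal zone B cells, read 9.55, 9.76 and 9.93 against 8.04, 8.00 and 8.30 (1.63, SE 0.28, adjusted p = 0.00341). Both were separated by more than a full unit. Cables1, a regulator of cyclin-dependent kinases, read 7.93, 8.70 and 7.87 against 5.87, 6.59 and 6.66 (1.80, SE 0.35, adjusted p = 0.0108; up to 0.1, without KO replicate 2).

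Basp1, a membrane-bound protein gene, read 10.81, 11.09 and 10.64 log2 units in KO and 9.40, 8.68 and 9.36 in WT (1.70, SE 0.35, adjusted p = 0.0191; up to 0.144, without WT replicate 2). Lrrk2, encoding a large kinase, read 10.88, 10.87 and 10.65 against 9.71, 8.89 and 9.27 (1.51, SE 0.24, adjusted p = 0.0015). Cd28, best known as the costimulatory receptor of T cells, read 7.71, 8.10 and 8.37 against 6.68, 6.22 and 6.53 (1.59, SE 0.31, adjusted p = 0.0131; up to 0.0915, without WT replicate 2). No other tested T cell marker was called. The list's 8 tested members had a median of -0.05, which was 0.30 without WT replicate 2 and 0.18 without KO replicate 3. The summed T cell markers given above were higher in KO replicates 2 and 3, at 875 and 858, than on any control array, and their part in the Cd28 difference was not tested.

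Both genes of the kynurenine pathway that were called were higher. Haao read 7.84, 8.23 and 7.91 log2 units in KO and 6.55, 6.04 and 7.14 in WT (1.42, SE 0.26, adjusted p = 0.00816; up to 0.0785, without WT replicate 2), and Kmo read 10.34, 10.65 and 10.45 against 9.63, 9.61 and 9.64 (0.85, SE 0.17, adjusted p = 0.0147; up to 0.111, without KO replicate 2). The pair was picked out after the calls were seen. All 6 arrays of each gene were in order, KO above WT.

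Of 18 tested integrin and adhesion genes 2 were called, Cd2 and its ligand Cd48, both higher. Cd2 read 8.14, 8.59 and 8.70 log2 units in KO and 6.68, 7.70 and 7.85 in WT (1.07, SE 0.23, adjusted p = 0.0241; up to 0.153, without WT replicate 1), and Cd48 read 12.33, 11.74 and 12.21 against 11.36, 11.46 and 11.41 (0.68, SE 0.15, adjusted p = 0.0306; up to 0.21, without KO replicate 1). The lowest KO array stood only a little above the highest WT array in both. The list's median was -0.06.

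Further called genes with higher signals in KO cells covered B cell regulators. Bcl6, the repressor that drives germinal centre B cells, read 8.92, 9.39 and 8.78 log2 units in KO and 8.28, 7.59 and 8.26 in WT (0.98, SE 0.21, adjusted p = 0.022; up to 0.203, without WT replicate 2). Ltb, the lymphotoxin beta gene, read 8.33, 8.31 and 8.48 against 7.76, 6.98 and 7.36 (1.01, SE 0.18, adjusted p = 0.00556; 0.0651 without WT replicate 2). Tec, a BTK-family kinase gene, read 11.12, 11.06 and 10.81 against 10.54, 10.35 and 10.34 (0.59, SE 0.10, adjusted p = 0.00553). Ltb stood out for its decline in both genotypes, from unstimulated means of 14.05 in KO and 14.10 in WT.

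Ly96 (MD-2), the partner of TLR4, read 8.18, 8.32 and 8.06 log2 units in KO and 7.12, 7.68 and 6.91 in WT (0.95, SE 0.20, adjusted p = 0.0199; up to 0.118, without KO replicate 2), while Tlr4 itself differed by -0.10. Tlr1 (1.00, adjusted p = 0.071) and Tlr7 (0.90, adjusted p = 0.074) missed the threshold. Ctsh, a lysosomal cathepsin gene, read 12.74, 12.93 and 12.87 log2 units in KO and 12.05, 12.12 and 12.28 in WT (0.70, SE 0.11, adjusted p = 0.00222). It was the called member among 18 tested genes of the lysosome and antigen processing list.

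Sorl1, a sorting receptor gene, was higher by 1.18 (SE 0.18, adjusted p = 0.00144), Endou, an endoribonuclease gene, by 1.27 (SE 0.18, adjusted p = 6.12e-04) and Bspry by 1.22 (SE 0.21, adjusted p = 0.00385). Cytip, whose product restrains cytohesin and adhesion, was higher by 0.81 (SE 0.13, adjusted p = 0.00184) at a high level of 12.67 to 13.71 log2 units. Fndc10 was at least 2.19-fold higher (adjusted p = 0.00147), with WT values under the filter level and a second probe set at -0.22. Tax1bp3 was called higher (adjusted p = 0.0199; up to 0.108, without KO replicate 3), but with dim signals raised its difference of at least 2.23-fold did not pass (adjusted p = 0.176). With signals raised likewise, Fndc10 had an adjusted p of 0.0416.

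Adgre1 (F4/80), a macrophage gene, was higher by 1.18 (SE 0.24, adjusted p = 0.0191; up to 0.13, without KO replicate 2), at 10.40, 10.50 and 9.85 log2 units in KO and 9.12, 9.14 and 8.95 in WT. Summed macrophage markers were highest in KO replicate 3, in which Adgre1 was the lowest of the KO arrays. Of 12 such markers on the array, 2 (C1qa and C1qc) were under the filter level throughout. The difference was positive in 9 of 10 tested members of that list, with a median of 0.20. Without KO replicate 2 it was positive in 6 of 10, with a median of 0.45. The part of macrophage content in the Adgre1 difference was not tested. The remaining called genes higher in KO cells had differences from 0.42 to 1.87. They were Emid1, Slc26a11, Cd93, Lpin1, 4930426D05Rik, Gcnt1, Serpinb1a, Trim59, Lpxn, Klhl6, Ms4a4c, Sesn3, Tcp11l2, Acap1, Grcc10, Plgrkt, Ighv14-2, Man1a, Ccdc50 and Hps3.

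Many gene groups of B cell activation showed no call. None of 29 immediate early factors was called (median -0.08), nor of 23 tested B cell receptor signalling genes (0.10), 19 NF-kB genes (-0.07), 20 activation and costimulatory markers (0.10), 24 apoptosis regulators (0.05), 30 MYC target and ribosome biogenesis genes (median -0.13) or 24 mitosis genes (0.00). Myc differed by -0.07, Cd69 by 0.10 and Cd86 by -0.02, each with an adjusted p of 0.997. A missed threshold does not show equal levels. At the share of 0.615% called over all genes, a list of this length often holds no call.

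Of 28 tested DNA replication genes 27 had a negative difference, with a median of -0.20 against 0.01 over all genes, but none was called and the nearest was Mcm4 (-0.53, adjusted p = 0.21). Tk1 was the exception, at 0.54. The count was 27 of 28 under both scalings and without KO replicate 2, and 17 of 28 with a median of -0.07 without WT replicate 2, and 23 of 28 without KO replicate 3. The interferon response list had a median of 0.39, with 15 of 21 tested members positive and none called; Rtp4 (1.27, adjusted p = 0.82) had the largest difference.

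Among marker lists of B cell subsets, the marginal zone list had 2 of 10 tested members called higher, Cr2 and Cd36, with a median of 0.44 and 8 positive. Its summed signals were 15540 to 18380 in KO and 13170 to 15430 in WT. The follicular list had 1 of 8 called, Fcer2a, and sums of 11880 to 13270 against 9151 to 11110. The B1 list had Spn (CD43) called lower, at 7.81, 7.50 and 7.74 log2 units against 8.62, 8.79 and 8.78 (-1.05, SE 0.21, adjusted p = 0.0147; up to 0.09475, without KO replicate 2), a median of -0.78 over 7 members and sums of 1331 to 1554 against 2138 to 2503. Cd5, which also marks B1 cells, differed by 0.00. Transitional markers split: Cd93 read 9.25, 10.03 and 9.75 against 8.62, 9.02 and 8.44 (0.98, adjusted p = 0.0291; up to 0.233, without KO replicate 2), and Myb read 10.33, 9.88 and 10.48 against 11.33, 11.30 and 11.26. The part of subset composition in the differences was not tested.

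**Figure D4:**
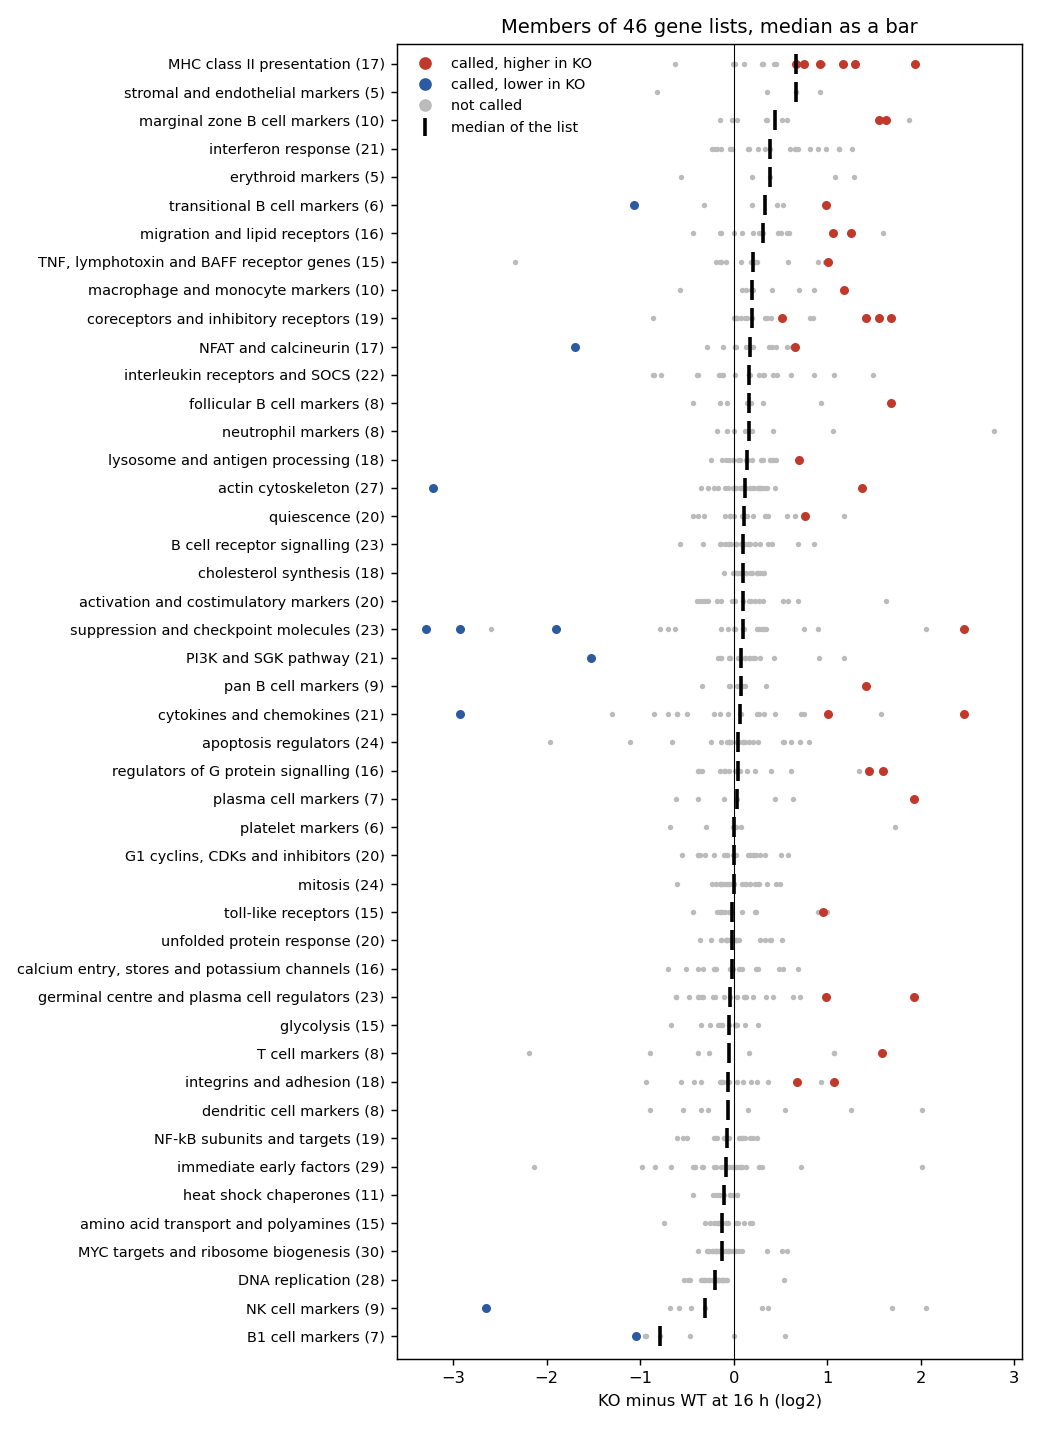
Difference KO minus WT at 16 h (log2) of the tested members of 46 gene lists, 1 row per list with the number of tested members in brackets. Points are genes, coloured where called, and the black bar is the list's median. The lists were chosen with earlier results of these data known. The MHC class II list has the highest median (0.67) with 6 red points, next to 5 stromal and endothelial markers at 0.66 (-0.11 without KO replicate 2) of which none was called, DNA replication sits in a tight row left of 0 without a call, and the lowest points are Pdcd1, Actn1 and Ifng.

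The same genes were read at the other times, on arrays that are not part of the 16 h difference, although they share its estimate of spread and may come from the same animals. Among the 61 higher genes the difference was positive in 41 at 0 h, 52 at 3 h and 60 at 8 h, with medians of 0.06, 0.21, 0.44 and, at 16 h, 0.98. For the 27 lower genes it was negative in 20, 24 and 26, with medians of -0.24, -0.56, -0.81 and -1.31. Over all genes the share of positive differences was 53.0%, 51.9% and 55.4% at 0, 3 and 8 h. The sign was therefore mostly shared at 8 h, and the size grew with time, although the choice by the 16 h values favours larger values there.

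In control cells between 0 and 8 h, a change that shares no array with the comparison, 47 of the 61 genes higher in KO went down (77.0%, median -1.18) and 21 of the 27 lower in KO went up (77.8%, median 0.84). Over all genes 52.1% went down. Marchf1, Cr2, Cd22, the called class II genes and Ltb are of the first kind, and Actn1, Pdcd1 and Rcan1 of the second. Apart from this grouping, Sgk1 had a KO minus WT difference of -0.98 already at 0 h, for which no call is given here.

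Whether a difference is particular to 16 h was tested directly. Against 0 h, 3 of 14318 genes differed in their KO minus WT difference (0.021%), P2ry10, Rgs2 and Rcan1, and 624 (4.36%) had an unadjusted p under 0.05. Against the mean of 0, 3 and 8 h it was again 3 genes (0.021%), P2ry10, H2-DMb2 and Rcan1, with 543 (3.79%) at an unadjusted p under 0.05. With the 4 arrays of each genotype and replicate number as a random block, which assumes that they share a source across times, 24 and 21 genes passed these tests. The estimated correlation within such a block was 0.21. WT replicate 2 alone was of male type, at all 4 times, but whether the other numbers share a source was not tested. By limma, no gene passed either test when arrays were shifted to a common median (442 and 422 genes at an unadjusted p under 0.05), and none passed against the mean of the other times without WT replicate 2 (440 genes).

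Rcan1 went from a difference of 0.11 at 0 h over -0.14 at 3 h and -0.70 at 8 h to -1.70 at 16 h (16 h minus 0 h -1.81, SE 0.26, adjusted p = 0.00316; against the mean of the others -1.45, SE 0.21, adjusted p = 0.00777). Control signals were 8.21, 8.28 and 8.43 log2 units at 0 h and 10.98, 11.37 and 10.74 at 16 h, while KO signals went from 8.44, 8.47 and 8.33 to 9.10, 9.57 and 9.32. The KO arrays thus also ended above their own start, by less than the controls did. P2ry10 went from -0.11, 0.40 and 0.36 to 1.25 (16 h minus 0 h 1.37, SE 0.19, adjusted p = 0.00316).

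For P2ry10 the genotypes overlapped at 0 h, with 12.56, 12.78 and 13.12 log2 units in KO and 12.97, 12.84 and 12.99 in WT, and at 16 h controls had dropped to 10.84 to 11.03 while KO were at 12.08 to 12.31. Rgs2 widened earlier, from -0.12 at 0 h to 0.68, 1.11 and 1.44 (16 h minus 0 h 1.56, SE 0.28, adjusted p = 0.0491). Against the mean of the others Rgs2 did not pass (0.89, adjusted p = 0.3109). H2-DMb2 differed by 0.13, 0.32 and -0.03 at 0, 3 and 8 h and by 1.29 at 16 h (against the mean of the others 1.15, SE 0.20, adjusted p = 0.0271; against 0 h 1.16, adjusted p = 0.1045, not passed). Its signals at 8 h were 12.17, 12.48 and 12.03 in KO and 12.20, 12.43 and 12.15 in WT, nearly the same, and at 16 h the controls had fallen further than the KO arrays, to the values given above.

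Other genes of the comparison were called at earlier times already, on tests of their own. Actn1 had differences of -0.32, -2.19 and -3.19 at 0, 3 and 8 h, called at 3 h (adjusted p = 0.0316) and 8 h (5.2e-04). Sgk1 (-1.58 and -1.56), Twsg1 (-1.24 and -1.26), Adamts6 (-1.40 and -1.34) and Rgs13 (1.31 and 1.81) were called at both 3 and 8 h. Cr2 (0.90), Cd22 (1.02), Gsn (0.93), Vsir (-1.62), Tmtc4 (-1.24), Bspry (1.28), Rgs2 (1.11) and Nfatc1 (0.72) were called at 8 h. H2-DMa, Fcer2a and Marchf1, by contrast, were called at 16 h with differences at 8 h of 0.31, 0.58 and 0.57, and their change between times was not among those called in the tests without that block.

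**Figure D5:**
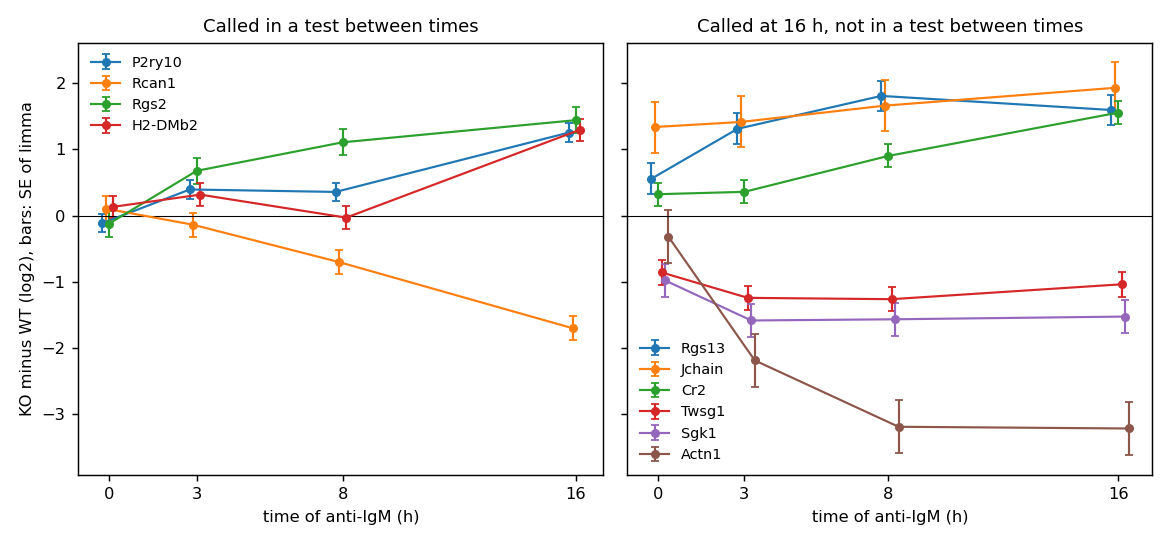
Difference KO minus WT (log2) at 0, 3, 8 and 16 h of anti-IgM with limma's SE as bars. On the left are the 4 genes whose difference at 16 h differed by a test from 0 h or from the mean of the other times. On the right are 6 genes called at 16 h without such a test passing. Rcan1 falls away from 0 only after 3 h and H2-DMb2 only after 8 h, and Actn1 reaches its 16 h level by 8 h. The points of Jchain, Sgk1 and Twsg1 lie off 0 already at 0 h, as do those of Rgs13 (0.56) and Cr2 (0.32). No call at 0 h is given here for any of them, and Jchain did not pass limma's test at that time (1.34, adjusted p = 0.69).

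The probe set chosen for a gene mattered in some cases. Of the 88 called genes 51 had several kept probe sets, and for 9 (Ablim1, Cd93, Chml, Dpysl2, Epcam, Fndc10, Hivep3, Hps3 and Nfatc1) at least 1 other pointed the opposite way. Tested one by one, 114 of 26671 probe sets with 1 gene symbol were called (0.427%). With the probe sets of no or several symbols included, 123 of 33486 were called (0.367%).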

How the data were processed

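Log2 signals of 45101 probe sets on 24 arrays were deposited by the authors, made with MAS5 per the submitters' processing notes; its version is not given in the sources used here. On every array the trimmed mean linear signal was 500, so arrays arrived scaled. No further normalization was applied. MAS5 does not share information between arrays, which leaves dim probe sets noisy.

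After 64 control probe sets were left out, 33486 were above their array's 40th percentile on at least 3 arrays. Gene symbols came from GEO's platform annotation (34945 probe sets with 1 symbol, 932 with several), updated through gene identifiers for 34741. The probe set of highest mean stood for each of 14318 genes. limma 3.58.1 in R 4.3.3 (lmFit, eBayes with trend) fitted 8 group means to all 24 arrays, with 16 residual degrees of freedom. Benjamini-Hochberg adjustment ran over all genes, with calls at 0.05. For "at least" folds, signals under an array's filter level were raised to it. Precision is limited by the 3 arrays per group. The fitting step was first tested on simulated data with 50 changed genes at each fold. It called 22% of changes of 1.5-fold, 40% of 2-fold, 62% of 3-fold and 74% of 4-fold, with 2 false calls among 14318 genes.

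Members and lists were chosen with earlier results of these data known. Named were called genes, with values per array for the 15 highest and 15 lowest and for called list members, the Nfatc1 probe sets, list members and the leading genes of the tests between times. Samples were grouped by their labels. Alternatives covered scaling, filter, probe set choice, replicate block, array weights, trend, the 6 arrays alone, a minimum of 1.5-fold and left-out arrays.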

Additional observations from a re-analysis of the deposited data

Results flagged for a closer look

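In 4 genes the KO minus WT difference at 16 h differed from that at 0 h or from the mean of 0, 3 and 8 h. The test was limma's, on the difference itself, and only P2ry10 and Rcan1 passed both forms. Against 0 h the change in the difference was 1.37 log2 units for P2ry10, 1.56 for Rgs2 and -1.81 for Rcan1. Against the mean of 0, 3 and 8 h it was 1.04 for P2ry10, 1.15 for H2-DMb2 and -1.45 for Rcan1. Adjusted p-values and the values on each array stand with the results above.

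Probe sets that the platform annotation gives no symbol or several symbols took no part in the tests by gene. Of 6815 such probe sets, 14 were called at 16 h when all 33486 were tested together by limma, 9 higher and 5 lower in KO cells (0.205%), against 109 of 26671 with 1 symbol (0.409%).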

How the results depend on the processing

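Counts at 16 h are given as called, higher and lower. They were 43, 28 and 15 with arrays shifted to a common median (a shift of -0.03 in the median difference), 48, 32 and 16 without the trend, 153, 93 and 60 with array weights, 41, 24 and 17 from the 6 arrays alone, and 3, 1 and 2 (Actn1, Cr2 and Rcan1) against a minimum of 1.5-fold. They were 36, 28 and 8 without the 4 male-type arrays (WT replicate 2 at each time) and 42, 25 and 17 without the 2 of highest background, both chosen after seeing the data. Leaving out 1 array gave 42 to 75, 25 to 54 and 11 to 24. Genes whose difference differed from 0 h numbered 5 with quantile normalization, 0 at the common median, 18 with array weights and 2 to 5 with 1 array left out. Against the mean of the other times they numbered 0 at the common median, 5 with dim signals raised, 5 with every probe set tested, 15 with array weights, 1 each without the male-type and without the highest-background arrays and 0 to 6 with 1 array left out. Some of these settings use fewer arrays than the main fit, and the cause of the changed counts was not tested.

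The main fit did not take the replicate numbers to pair samples, because the labels do not say what a number shares. Same-numbered arrays of both genotypes deviated together with correlations of 0.057, 0.064 and 0.222. Whether they share a source was not tested. With the replicate number as a block, 208 genes were called, 152 higher and 56 lower, including all 88, with 25 and 21 genes differing between times. With genotype and replicate number together as a random replicate block, which does not join KO and WT arrays, 98 genes were called, and 24 and 21 differed between times. None of the 88 differences changed sign under these alternatives. Small list medians did: T cell markers (-0.05) had 0.30 without WT replicate 2 and 0.18 without KO replicate 3, apoptosis regulators (0.05) had -0.01 without WT replicate 2, mitosis (0.00) had -0.18 without KO replicate 2, and all genes (0.01) had -0.02 at the common median and without KO replicate 2. Of the 88 genes, 18 passed under all 19 alternatives other than the minimum fold. A group mean under the filter level limits Nkg7, Fndc10, Tax1bp3 and Tgfb3, given as bounds, and Nkg7 and Tax1bp3 were not called with dim signals raised. Single arrays under that level also entered other differences, such as those of Emid1, Slc26a11 and Epcam.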
